A study of Mus musculus with 5 samples.

Results

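The LIF, BMP and FGF pathways were followed in mouse embryonic stem cells (mESCs) through 10 genes: Lifr, Il6st, Jak1, Stat3 and Socs3 of the LIF pathway, Bmpr1a, Id1 and Id3 of the BMP pathway, and Fgf4 and Fgfr1 of the FGF pathway. Members were all transcripts of these genes that Gencode types as protein_coding, 40 of the 56903 such transcripts in the table, and 10 of 21870 genes. The transcript with the highest mean level represented each gene and is called its main transcript. All cells were 46C mESCs, an embryonic stem cell line, grown in serum with 1000 units/ml of LIF and treated with cycloheximide, which stalls elongating ribosomes, before lysis and RNase I digestion. Standard RIBO-seq (3 libraries) collected all ribosomes by centrifugation on a cushion of 30% sucrose. In AHARIBO RIBO-seq (2 libraries), ribosomes were captured on magnetic beads through nascent chains that carry the methionine analog L-azidohomoalanine (AHA), linked to biotin in the lysate. The labels call all 5 libraries untreated biological replicates and give no AHA dose for them. In the study's AHA protocol for mESCs, cells were first depleted of methionine and, after AHA, treated with sBlock, an anisomycin-based reagent that holds nascent chains on ribosomes. The study describes standard RIBO-seq as run on the input material, and whether the cells of the standard libraries had also received AHA is not stated for these libraries. The groups may therefore differ in AHA labeling, methionine depletion and sBlock treatment of the cells as well as in ribosome capture. The comparison asks how far the footprint counts of these genes differed between the methods.

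LIF binds a pair of receptor chains, encoded by Lifr and Il6st, on which the kinase Jak1 phosphorylates the transcription factor Stat3, and Socs3 is a target of Stat3 that feeds back to inhibit the receptor and the kinase. BMPs signal through receptors such as Bmpr1a and induce Id1 and Id3, small proteins that bind basic helix-loop-helix factors and keep them from DNA. In mESCs the LIF and BMP pathways sustain self-renewal, whereas Fgf4, which mESCs secrete, acts through FGF receptors such as Fgfr1 and the ERK kinases to prepare the cells for lineage commitment.

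AHA enters a nascent chain at methionine codons, so the start of the coding sequence is shown for the 4 members with the shortest coding sequences and for the 2 with the longest. The lines give bases 1 to 120 of the coding sequence (40 codons, Gencode M21 transcripts, GRCm38), with every in-frame ATG codon in capitals.
Id1 (chr2:152736341-152736460, + strand, coding exon): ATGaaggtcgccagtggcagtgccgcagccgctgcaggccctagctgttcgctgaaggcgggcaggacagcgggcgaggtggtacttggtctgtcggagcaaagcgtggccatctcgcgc
Id3 (chr4:136143879-136143998, + strand, coding exon): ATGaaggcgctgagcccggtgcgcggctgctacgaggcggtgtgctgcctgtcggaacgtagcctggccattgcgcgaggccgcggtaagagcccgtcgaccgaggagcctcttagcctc
Socs3 (chr11:117968111-117968230, - strand, coding exon): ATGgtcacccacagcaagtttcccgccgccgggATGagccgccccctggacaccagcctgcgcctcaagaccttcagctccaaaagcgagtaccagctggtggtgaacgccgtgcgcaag
Fgf4 (chr7:144861505-144861624, + strand, coding exon): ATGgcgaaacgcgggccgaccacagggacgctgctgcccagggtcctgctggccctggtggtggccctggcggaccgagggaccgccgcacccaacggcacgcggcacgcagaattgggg
Lifr (chr15:7154409-7154528, + strand, coding exon): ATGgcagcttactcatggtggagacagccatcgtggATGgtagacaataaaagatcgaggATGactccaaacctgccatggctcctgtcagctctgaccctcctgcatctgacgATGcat
Jak1 (chr4:101191560-101193788, - strand, 2 coding exons): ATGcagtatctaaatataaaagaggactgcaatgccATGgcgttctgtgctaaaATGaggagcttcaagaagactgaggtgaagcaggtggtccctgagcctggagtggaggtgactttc
Id1, Id3 and Fgf4 held the start codon as the only ATG codon in this stretch, Socs3 held 2, Jak1 held 3 and Lifr held 4. Over the whole coding sequence, Id1 and Id3 held 2 ATG codons each, Socs3 held 3, Fgf4 held 5, Lifr held 15 and Jak1 held 31.

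After removal of duplicate reads the libraries held between 6403651 and 11150527 counts, summed over transcripts, and duplicates had made up 43.3% to 47.7% of each. Levels are given as CPM, read counts scaled to the TMM-adjusted library size, and 3 counts correspond to 0.262 to 0.476 CPM. Transcripts of 1 gene have the sequence of their common exons in common and are not independent measurements. All 10 stem cell markers examined were at 43.7 CPM or more in every library, with summed levels of 1403 to 1497 CPM in standard and 1317 to 1415 CPM in AHARIBO RIBO-seq. Among them Sox2 and Klf4 were called lower in AHARIBO RIBO-seq (log2 fold change -0.32 and -0.34, edgeR adjusted p = 0.0130 and 0.00836). Tfcp2l1 was called higher (0.28, adjusted p = 0.0257). Over all main transcripts of protein-coding genes, 2.53% were called lower and 2.60% higher. At least 1 CPM in every library was reached by 3 of 5 neuroectoderm markers (summed 52.0 to 52.8 CPM in standard, 44.5 to 48.3 CPM in AHARIBO RIBO-seq), 1 of 6 fibroblast markers (5.63 to 6.50 and 5.77 to 5.89 CPM) and 0 of 6 mesoderm and endoderm markers (3.20 to 4.92 and 2.62 to 3.59 CPM). The part of these cell types in the results was not tested.

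All 10 main transcripts were above 7 CPM in every library and were tested. Id1 was the only one that differed between the methods at an adjusted p under 0.05, and it was lower in AHARIBO RIBO-seq. None was called higher. DESeq2 called 0 of the 7 members for which it gave an adjusted p, and 3 of the 10 had an unadjusted p under 0.05 there. Of the 12369 main transcripts of protein-coding genes tested, 2.53% were called lower and 2.60% higher, and of all 66972 transcripts tested 4.51% were called. Before adjustment, 6 of the 10 members had a p under 0.05 (4 lower and 2 higher) in edgeR, where 19.5% of main transcripts did. The libraries of the methods did not overlap for 5 members. Id1, Id3, Socs3 and Fgf4 were below all standard libraries in both AHARIBO libraries, as were 17.1% of main transcripts, and Lifr was above them, as were 17.3%. The median log2 fold change of AHARIBO over standard RIBO-seq was -0.07 over the members and 0.00 over all transcripts. The counts are ribosome footprints recovered by each method, not RNA levels. A difference in the make-up of the cells and a difference in footprints per cell cannot be told apart in such bulk libraries.

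**Figure D1:**
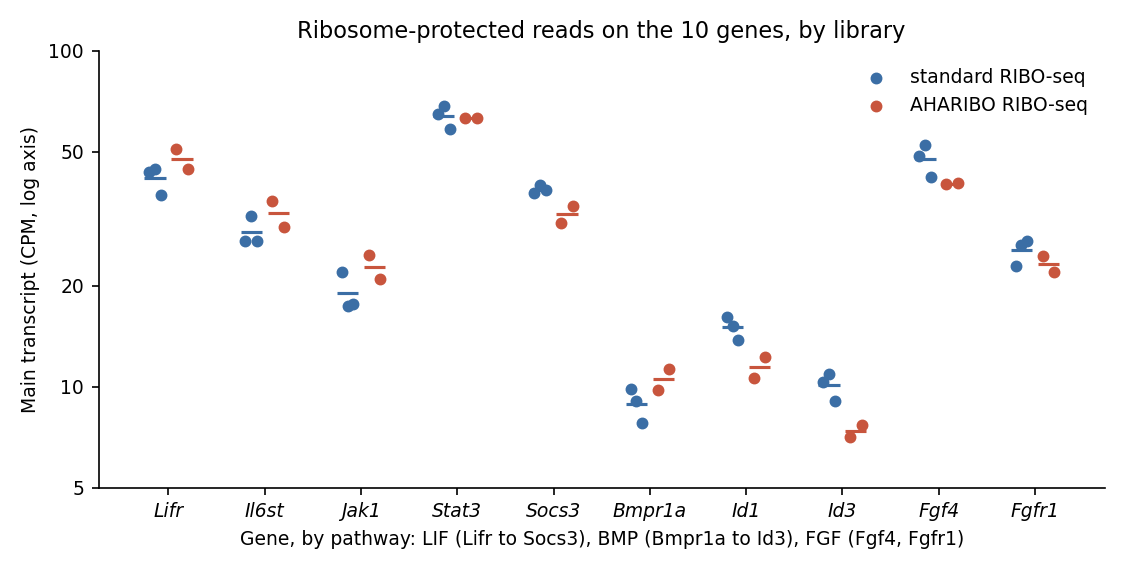
Level of the main transcript of each gene (CPM, log axis) in 3 standard RIBO-seq libraries (blue) and 2 AHARIBO RIBO-seq libraries (red), with points for libraries and lines for group means. The AHARIBO points lie below all standard points for Socs3, Id1, Id3 and Fgf4, and above them for Lifr.

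Lifr encodes the LIF-binding receptor chain (main transcript chr15:7129559-7191743, + strand, 20 exons, 1092 codons). It was at 43.7, 44.4 and 37.1 CPM in standard replicates 1 to 3 and at 50.8 and 44.5 CPM in AHARIBO replicates 1 and 2. The lower AHARIBO library was only just above the highest standard one. The log2 fold change was 0.18 ± 0.09 (SE), with an adjusted p of 0.246 from edgeR's quasi-likelihood test, and it was 0.082 without AHARIBO replicate 1, 0.118 without standard replicate 3, 0.28 without AHARIBO replicate 2 and 0.34 with summed protein_coding transcripts.

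Il6st encodes gp130, the signaling chain that LIF shares with other cytokines of its family (chr13:112464070-112510086, + strand, 17 exons, 917 codons). Its level was 27.1, 32.2 and 27.1 CPM in the standard libraries and 35.6 and 30.0 CPM in the AHARIBO libraries. The groups overlapped, and the log2 fold change of 0.18 ± 0.10 did not pass the test (edgeR adjusted p = 0.300). It was 0.048 without AHARIBO replicate 1, 0.28 without standard replicate 2 and 0.30 without AHARIBO replicate 2.

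Jak1, the kinase bound to the receptor chains, was at 21.96, 17.3 and 17.6 CPM in standard and at 24.7 and 20.9 CPM in AHARIBO RIBO-seq (chr4:101152367-101265282, - strand, 25 exons, 1153 codons). Standard replicate 1 lay above the lower AHARIBO library. The log2 fold change was 0.26 ± 0.11 (edgeR adjusted p = 0.172), and it ranged from 0.13 without AHARIBO replicate 1 to 0.39 without standard replicate 1.

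Stat3 was the member with the most CPM (chr11:100886810-100939540, - strand, 24 exons, 770 codons). The standard libraries had 64.8, 68.4 and 58.5 CPM and the AHARIBO libraries 63.0 and 63.2 CPM, both inside the standard range. The log2 fold change was -0.02 ± 0.08 (edgeR adjusted p = 0.916), and its sign turned under 3 of 16 alternatives.

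Socs3, the feedback inhibitor, went from 37.6, 39.7 and 38.4 CPM in standard to 30.7 and 34.5 CPM in AHARIBO RIBO-seq (chr11:117966079-117969186, - strand, 2 exons, 225 codons). The SD of the standard libraries was 1.06 CPM, and neither AHARIBO library reached the lowest of them. The log2 fold change was -0.25 ± 0.09, and the adjusted p of 0.100 from edgeR missed the threshold. It was -0.16 without AHARIBO replicate 1 (adjusted p = 0.673).

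Bmpr1a, a type I BMP receptor, had the lowest counts with Id3 (chr14:34410734-34502687, - strand, 13 exons, 532 codons). It was at 9.86, 9.05 and 7.77 CPM in standard and at 9.80 and 11.3 CPM in AHARIBO RIBO-seq. The groups overlapped, and the log2 fold change was 0.22 ± 0.14 (edgeR adjusted p = 0.418). It was 0.12 without AHARIBO replicate 2 and 0.35 with summed protein_coding transcripts.

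Id1 fell from 16.1, 15.1 and 13.8 CPM in the standard libraries to 10.6 and 12.3 CPM in the AHARIBO libraries (chr2:152736251-152737410, + strand, 2 exons, 148 codons). These values rest on 87 to 144 counts per library. The level was 1.33-fold lower in AHARIBO RIBO-seq (log2 fold change -0.41 ± 0.13, edgeR adjusted p = 0.0454), and both AHARIBO libraries were below all 3 standard ones. The call was lost without standard replicate 1 (edgeR adjusted p = 0.216) or standard replicate 2 (0.0726), and it remained without standard replicate 3 (0.0426). It was also lost with duplicate reads kept (0.152), unadjusted library sizes (0.0798) or no filter (0.0525). The same held for 1 transcript per gene (0.108), summed transcripts (0.195) and the longest coding sequence (0.0539). The log2 fold change was -0.30 without AHARIBO replicate 1 and -0.51 without AHARIBO replicate 2. DESeq2 gave an unadjusted p of 0.0347 and no adjusted value, since its filter on low counts left the transcript out.

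Id3 was at 10.3, 10.9 and 9.04 CPM in standard and at 7.09 and 7.69 CPM in AHARIBO RIBO-seq (chr4:136143497-136145392, + strand, 3 exons, 119 codons). Both AHARIBO libraries were below the lowest standard one, with 57 to 99 counts per library. The log2 fold change of -0.47 ± 0.15 was the most negative of the 10, but its adjusted p of 0.0539 in edgeR was just over the threshold (0.0468 without standard replicate 3). A retained-intron transcript of Id3 that also contains the coding sequence (738 nt) was called lower (log2 fold change -0.54 ± 0.15, edgeR adjusted p = 0.0300). That call was lost without standard replicate 1 (0.106), standard replicate 2 (0.0864) or AHARIBO replicate 1 (0.458), and with duplicate reads kept (0.0640).

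Fgf4, the secreted ligand, was at 48.6, 52.3 and 42.2 CPM in standard and at 39.98 and 40.4 CPM in AHARIBO RIBO-seq (chr7:144861386-144865243, + strand, 3 exons, 202 codons). The AHARIBO libraries were almost equal and lay just under standard replicate 3. The log2 fold change was -0.26 ± 0.09 (edgeR adjusted p = 0.0830), and only without standard replicate 3 did it pass the test among the alternatives (-0.33, adjusted p = 0.0320). Duplicate reads made up 19.8% to 29.6% of those on Fgf4 by library, more than on the other 9 members (5.04% to 21.7%) except in AHARIBO replicate 2, where Id1 had 21.7%.

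Fgfr1, the receptor tyrosine kinase, was at 22.9, 26.4 and 27.1 CPM in standard and at 24.4 and 21.97 CPM in AHARIBO RIBO-seq (chr8:25518759-25575718, + strand, 18 exons, 822 codons). The groups overlapped, with a log2 fold change of -0.12 ± 0.10 (edgeR adjusted p = 0.554). It was -0.050 without AHARIBO replicate 2, -0.20 without AHARIBO replicate 1 or standard replicate 1, and -0.21 with duplicate reads kept. In Fgfr1, 8.73% of the windows of 30 nt occur in over 10 transcripts, above the limit of places that STAR keeps for a read at its default settings, against at most 0.185% in the other members. What this took from the Fgfr1 counts was not tested.

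The 10 main transcripts took 0.0301%, 0.0314% and 0.0274% of all counts in the standard libraries and 0.0304% and 0.0288% in the AHARIBO libraries. The means were 0.0296% ± 0.0020 (SD, n = 3) and 0.0296% ± 0.0011 (SD, n = 2), with p = 1 in a two-sided exact permutation test over the 10 arrangements of the libraries, for which the smallest possible p is 0.1.

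Counts cover whole transcripts, and to compare genes they were divided by the length of the coding sequence. Per kb of coding sequence, Fgf4 was the highest member at 72.2 CPM per kb on average (65.7 to 85.9 over the 5 libraries). Socs3 followed at 52.5 CPM per kb (45.3 to 58.6), and its range did not meet that of Fgf4. Reads on the 5′ UTR are part of this value. ENSMUST00000132295.1, with 169 of its 246 nt on that 5′ UTR, had counts equal to 27.2% of the Socs3 main count in standard and 24.6% in AHARIBO RIBO-seq on average. Id1 (29.6), Stat3 (27.5) and Id3 (24.3 CPM per kb) came next, and their ranges overlapped. Their order differed between the methods, with means of 33.6, 27.6 and 28.0 CPM per kb in standard and 25.6, 27.3 and 20.5 CPM per kb in AHARIBO RIBO-seq for Id1, Stat3 and Id3. Lifr (13.6) lay apart from Id3 and overlapped with Il6st (11.2), which overlapped with Fgfr1 (9.85 CPM per kb). Bmpr1a and Jak1 were the lowest, at 6.08 and 6.03 CPM per kb with overlapping ranges, and lay apart from Fgfr1. The secreted ligand, the feedback inhibitor and the Id proteins had a higher footprint density on this scale than any of the receptors or the kinase, but per kb of whole transcript Id3 (6.84 CPM) was below Lifr (10.8 CPM). On that scale Fgf4 (14.5), Id1 (14.2), Stat3 (14.1) and Socs3 (13.9 CPM per kb) were close to each other.

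All members with a short coding sequence were lower in AHARIBO RIBO-seq, and the longer ones went both ways. The 4 members with coding sequences under 750 nt (Id3, Id1, Fgf4 and Socs3) had a median log2 fold change of -0.33, and all 4 were negative. The 6 members of 750 nt or more had a median of 0.18, and 4 of them were positive while Stat3 and Fgfr1 were negative. Without AHARIBO replicate 1, a setting chosen after seeing the data, this median was 0.065 and that of the 4 short members was -0.28. In the wider list of the 3 pathways 7 of the 13 tested genes under 750 nt were negative and 5 of the 6 from 3000 nt were positive. Over all genes with a complete coding sequence and a mean of at least 10 CPM, 83.3% were negative below 450 nt and 74.3% from 450 to 750 nt. From 3000 nt, 21.8% were negative. The share of negative short genes in the wider list was below that of either short class. Over the 10 members, Spearman's rho between the log2 fold change and coding length was 0.87, and that with ATG codons per 100 codons was 0.38.

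Medians also rose with coding length over all genes. Among 6004 main transcripts with a complete coding sequence and a mean of at least 10 CPM, the median log2 fold change was -0.17 below 450 nt of coding sequence (n = 497), -0.10 from 450 to 750 nt (n = 752), -0.05 from 750 to 1500 nt (n = 1952), 0.02 from 1500 to 3000 nt (n = 1840) and 0.12 from 3000 nt (n = 963). Calls were 113 lower and 1 higher in the shortest class, and 1 lower and 119 higher in the longest. Spearman's rho over the 6004 genes was 0.46 with coding length and 0.01 with ATG codons per 100 codons. These genes were measured in the same 5 libraries as the members and are not independent replicates, and the classes were drawn after the values of the members had been seen. Other properties that change with coding length were not tested.

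Each member was set beside the genes of its length class with a mean of at least 10 CPM, a level that Id3 (9.01 CPM) and Bmpr1a (9.55 CPM) did not reach themselves. The log2 fold changes of Id3 and Id1 were above those of 1.01% and 4.02% of the genes under 450 nt. Fgf4 and Socs3 were above 12.6% and 14.4% of the genes of 450 to 750 nt. Bmpr1a and Il6st were above 86.4% and 81.7% of the genes of 1500 to 3000 nt, where Stat3 and Fgfr1 were above 37.2% and 16.7%. Jak1 and Lifr were above 79.8% and 63.9% of the genes from 3000 nt.

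**Figure D2:**
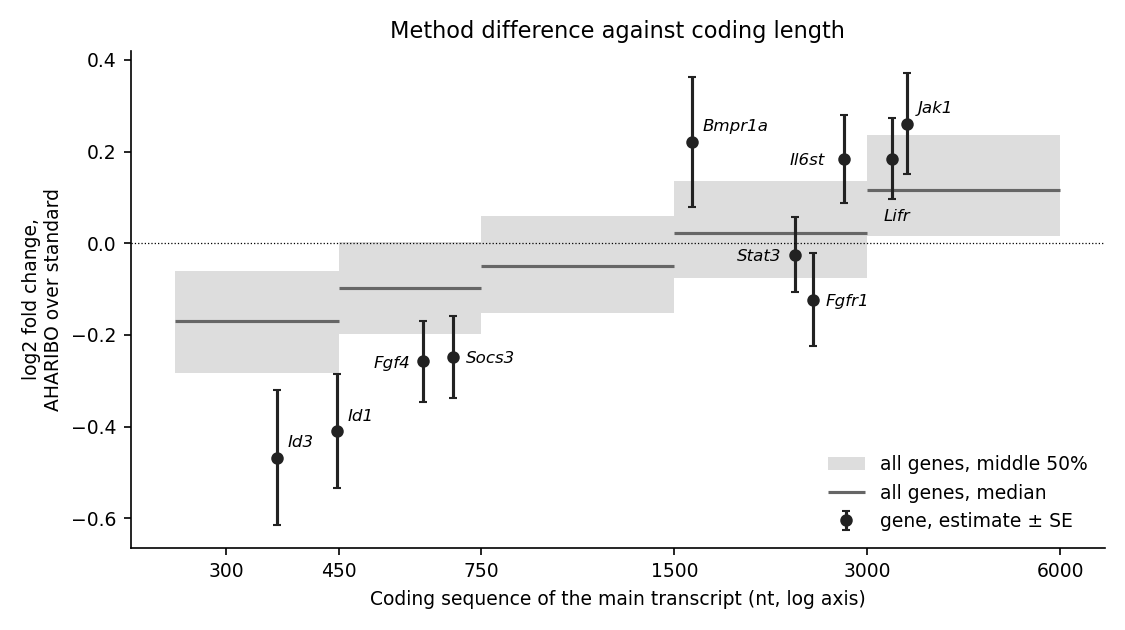
Log2 fold change of AHARIBO over standard RIBO-seq (y axis) against the coding length of the main transcript (nt, log axis), with points and SE bars for the 10 genes, grey boxes for the middle 50% of 6004 genes in 5 length classes and grey lines for their medians (the outer classes are open-ended and drawn to the edge shown). Medians rise from -0.17 to 0.12 with length, Id1, Id3, Fgf4, Socs3 and Fgfr1 lie below their boxes, and Bmpr1a, Il6st and Jak1 lie above theirs.

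All 40 protein_coding transcripts of the members were tested, and 4 were called, the main transcript of Id1 (lower) and 3 transcripts of Lifr (higher), where 4.51% of all transcripts were called. The 3 Lifr transcripts share coding sequence and are not separate calls. The 4 transcripts of Stat3 spanned -0.06 to -0.01 on the log2 scale and the 9 of Il6st spanned -0.06 to 0.37. The 9 of Fgfr1 spanned -0.43 to 0.12, and its next highest transcripts, ENSMUST00000179592.7 and ENSMUST00000117179.8, had -0.12 and -0.14. The other protein_coding transcript of Id1, ENSMUST00000109824.1, had a log2 fold change of -0.40 ± 0.13 (edgeR adjusted p = 0.0539).

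Transcripts of Lifr were called in opposite directions. The full coding sequence is shared by the main transcript and by ENSMUST00000171588.1 and ENSMUST00000226471.1, which hold only 22 of the 290 nt of its 5′ UTR. These 2 were higher in AHARIBO RIBO-seq, by 0.52 ± 0.09 and 0.35 ± 0.10 on the log2 scale (edgeR adjusted p = 0.000319 and 0.0220). The third protein_coding transcript called, ENSMUST00000227727.1, rose by 0.35 ± 0.11 (adjusted p = 0.0460), and a nonsense_mediated_decay transcript rose by 0.35 ± 0.10 (adjusted p = 0.0266). Without AHARIBO replicate 1 the 4 log2 fold changes were 0.36, 0.17, 0.25 and 0.16, with adjusted p-values of 0.0929, 0.658, 0.505 and 0.689. Without standard replicate 1 the last 3 were 0.0802, 0.104 and 0.0854, and without standard replicate 3 they were 0.116, 0.222 and 0.135. These 3 calls were also lost with DESeq2 (adjusted p = 0.191, 0.263 and 0.208) and with duplicate reads kept (0.110, 0.150 and 0.119), whereas ENSMUST00000171588.1 kept its call there (0.0206 and 0.0294).

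A short processed transcript of Lifr, ENSMUST00000226826.1 (299 nt), lies on the 5′ UTR of the main transcript, from 282 to 23 nt before the start codon. It was at 11.3, 10.3 and 9.36 CPM in standard and at 5.77 and 8.29 CPM in AHARIBO RIBO-seq, with no overlap. Its log2 fold change was -0.58 ± 0.16 (edgeR adjusted p = 0.0195), and it was -0.50 without standard replicate 1 (adjusted p = 0.132) and -0.33 without AHARIBO replicate 1 (0.575). With duplicate reads kept the adjusted p was 0.0708. Its counts equalled 25.9%, 23.1% and 25.2% of those of the main transcript in standard and 11.4% and 18.6% in AHARIBO RIBO-seq. The difference of -9.76 percentage points had p = 0.1 in the two-sided exact permutation test, the smallest it can give, and it was -6.14 without AHARIBO replicate 1 and -13.4 without AHARIBO replicate 2. Per kb this short transcript had 34.5 ± 3.27 CPM (SD, n = 3) in standard and 23.5 ± 5.95 CPM (SD, n = 2) in AHARIBO RIBO-seq, more than the 12.7 and 14.5 CPM per kb of coding sequence of the main transcript. The 5′ UTR of the main transcript holds 1 ATG, which opens a reading frame of 3 codons that closes before the start codon.

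Jak1 also had short transcripts on its 5′ UTR, which were not called. ENSMUST00000125968.1, of which 185 of 374 nt lie on the 5′ UTR of the main transcript, had counts of 41, 19 and 18 in standard and 18 and 18 in AHARIBO RIBO-seq. Its log2 fold change was -0.93 ± 0.30 (edgeR adjusted p = 0.0608) while that of the main transcript was 0.26. Its counts were 20.9%, 12.1% and 16.2% of those of the main transcript in standard and 6.38% and 8.61% in AHARIBO RIBO-seq (two-sided exact permutation p = 0.2, with no overlap). Without standard replicate 1 the log2 fold change was -0.52 (edgeR adjusted p = 0.511), and without standard replicate 2 it was -1.20 and passed the test (adjusted p = 0.0106), as it did without the filter on low counts (0.0351). The protein_coding transcript ENSMUST00000149297.1, with 307 of 421 nt on the same 5′ UTR, had a log2 fold change of -0.60 ± 0.28 (edgeR adjusted p = 0.229). Under the alternatives it ranged from -0.91 to -0.0039. In Socs3, whose main transcript was itself lower, 2 short transcripts on the 5′ UTR had log2 fold changes of -0.40 ± 0.14 and -0.38 ± 0.13 (edgeR adjusted p = 0.0923 and 0.0689), and with duplicate reads kept the first passed the test (0.0467).

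Taking every tested transcript of the members that shares at least 30 nt with the main transcript and ends before base 300 of its coding sequence gave 10 transcripts of 6 genes. Of these, 8 had a log2 fold change below that of their main transcript, with a median log2 fold change of -0.39, and 1 was called, lower (the Lifr transcript). Over all genes, 5269 transcripts met this definition, 5.62% of them were called lower and 0.133% higher, and 72.4% were below their main transcript. Transcripts of Bmpr1a (0.54 ± 0.28) and Il6st (0.31 ± 0.25) were the 2 of the members that went the other way, and neither passed the test (edgeR adjusted p = 0.283 and 0.549).

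**Figure D3:**
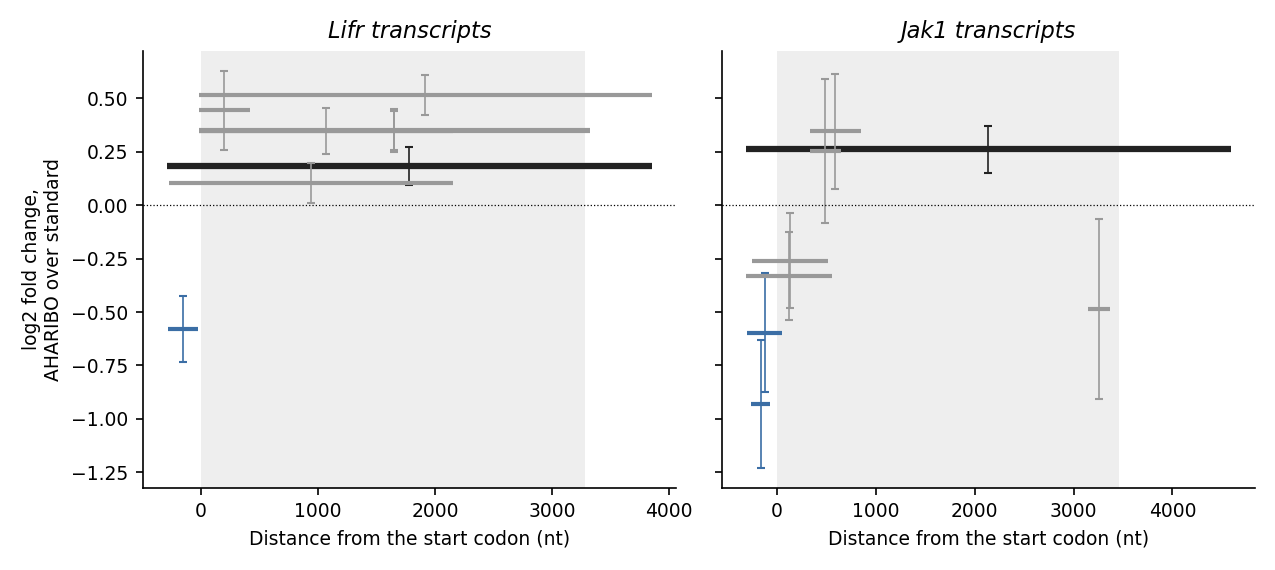
Log2 fold change of AHARIBO over standard RIBO-seq (y axis, bars ± SE) for each tested transcript of Lifr and Jak1, drawn from the first to the last base it shares with the main transcript (distance from the start codon in nt). The main transcript is black, transcripts that end before base 300 of the coding sequence are blue, others are grey and the coding sequence is shaded. The blue lines lie below 0 in both genes and the main transcripts lie above 0.

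At the 3′ end of Lifr the difference ran the opposite way. ENSMUST00000171588.1 (9655 nt) contains the coding sequence of Lifr and a 3′ UTR that is 6271 nt longer than that of ENSMUST00000226471.1 (3392 nt). The longer transcript held 5, 9 and 5 more counts than the shorter one in the standard libraries and 66 and 60 more in the AHARIBO libraries. In CPM this was 0.560, 0.993 and 0.793 against 5.77 and 5.99, a 7.52-fold difference of the means with no overlap (two-sided exact permutation p = 0.1, the smallest possible). Leaving out 1 library at a time, an alternative chosen after seeing the data, gave ratios between 6.59 and 8.69. This difference counts reads on the extension only if each read was counted on every transcript it matches, which the sources used here do not state.

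Il6st, the partner chain, was the other member with such a pair within the limits defined below for all genes. Its main transcript has a 3′ UTR that is 5595 nt longer than that of ENSMUST00000184311.7 and also 98 nt more of 5′ UTR, so that the difference between them is not of the 3′ extension alone. It held 23, 19 and 13 more counts in standard and 62 and 49 more in AHARIBO RIBO-seq. This came to 2.58, 2.10 and 2.06 CPM against 5.42 and 4.89 CPM, a ratio of 2.30 (two-sided exact permutation p = 0.1). ENSMUST00000184311.7, which lacks both, had a log2 fold change of 0.05 ± 0.10 (edgeR adjusted p = 0.832), against 0.18 for the main transcript. Bmpr1a also has a shorter transcript with the full coding sequence, ENSMUST00000165280.7, with 58 nt on the 3′ UTR against 3810 nt in its main transcript. That pair was outside the limits, since it differs more elsewhere (198 against 547 nt on the 5′ UTR). The shorter Bmpr1a transcript had a log2 fold change of 0.25 ± 0.17 (edgeR adjusted p = 0.448), against 0.22 for the main one. In Bmpr1a the longer transcript thus did not have the higher value.

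Over all genes, 125 had a pair of protein_coding transcripts with the same coding sequence, 3′ UTRs that differ by at least 1000 nt and at least 10 more counts on the longer one, with up to 100 nt of difference allowed elsewhere. In 35.2% of them the AHARIBO libraries were all above the standard ones, as in Lifr and Il6st, and in 5.6% they were all below. In 1 gene the standard libraries held no such counts. The median ratio over the other 124 was 1.43, and 2 of them, Lifr included, had a ratio as high as that of Lifr or higher. The definition was drawn after the Lifr counts had been seen.

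**Figure D4:**
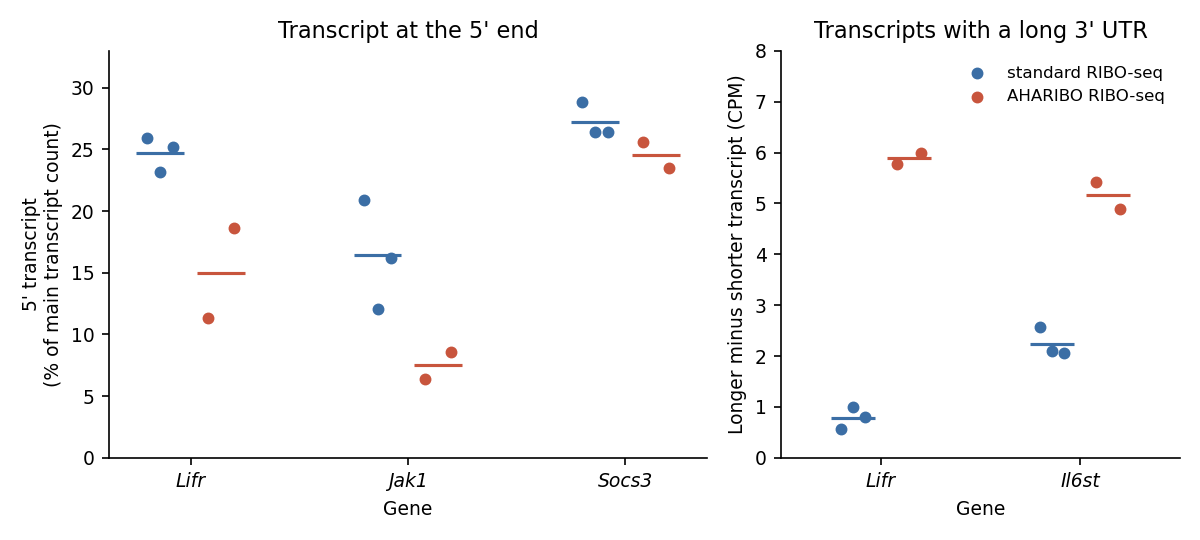
Left, counts of a short transcript on the 5′ UTR as a percent of the main transcript count for Lifr, Jak1 and Socs3. Right, level of the transcript with the long 3′ UTR minus that of the shorter transcript (CPM) for Lifr and Il6st (in Il6st this includes 98 nt of 5′ UTR). Points are libraries (standard RIBO-seq blue, AHARIBO RIBO-seq red) and lines are group means. AHARIBO points lie below the standard points on the left and above them on the right, where Lifr goes from under 1 to almost 6 CPM.

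The wider list held 88 further genes of the 3 pathways, of which 75 were tested, and the 13 others (Cntf, Osm, Il6, Il11, Osmr, Il6ra, Bmp2, Bmpr1b, Smad9, Nog, Grem1, Fgf5 and Fgf8) were under 1 CPM in every library. In edgeR 1 rose and 1 fell between the methods, where 2.60% and 2.53% of all main transcripts rose and fell. An unadjusted p under 0.05 was found for 16 of the 75, where 19.5% of all main transcripts had one. DESeq2 called 0 of the 27 for which it gave an adjusted p, and it gave none for the gene that rose. The median log2 fold change was 0.10 over the 29 tested genes of the LIF list, 0.06 over the 17 of the BMP list and 0.01 over the 29 of the FGF list.

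Socs7, a suppressor of cytokine signaling, rose from 3.36, 3.31 and 2.70 CPM in standard to 5.16 and 6.99 CPM in AHARIBO RIBO-seq. The difference was 1.90-fold (log2 fold change 0.92, edgeR adjusted p = 0.0040), and without AHARIBO replicate 2 the adjusted p was 0.0789, and with summed transcripts 0.0851. Map2k2, which encodes the ERK kinase MEK2, fell from 46.6, 49.4 and 47.4 CPM to 38.5 and 38.4 CPM (log2 fold change -0.31, edgeR adjusted p = 0.0218). Its call was lost without standard replicate 1 (adjusted p = 0.0828), standard replicate 2 (0.0692), AHARIBO replicate 1 (0.190) or AHARIBO replicate 2 (0.0661). Cntfr, a ligand-binding chain that works with Lifr and Il6st, was at 18.5, 21.6 and 17.9 CPM against 16.0 and 14.1 CPM and just missed the threshold (log2 fold change -0.37, edgeR adjusted p = 0.0506). In the BMP list 0 of 17 genes were called by edgeR and 1 had an unadjusted p under 0.05, the type II receptor gene Bmpr2 (log2 fold change 0.67, adjusted p = 0.117).

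Within gene families, levels were compared per kb of coding sequence. Jak1 (6.03 CPM per kb) was followed by Tyk2 (5.06) and Jak3 (4.73), whose ranges overlapped, and Jak2 was at 0.238 CPM per kb. Stat3 (27.5 CPM per kb) lay apart from Stat6 (5.54), Stat2 (4.35), Stat5b (2.42), Stat4 (2.25) and Stat5a (1.66). The ranges of Stat6 and Stat2 overlapped, and so did those of Stat5b, Stat4 and Stat5a, which lay below Stat2. Socs3 (52.5) and Socs2 (23.7 CPM per kb) lay apart from each other and from the other SOCS genes, which ran from Cish (3.73) to Socs5 (1.46). Bmpr1a (6.08) and the activin receptor gene Acvr2b (5.97 CPM per kb) overlapped at the top of their family, and Bmpr1b was under 1 CPM in every library.

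Id1 and Id3 were above Id2 (12.8) and Id4 (6.87 CPM per kb). Fgf4 was the highest of the FGF ligands, Fgf2 was at 2.71 and Fgf15 at 1.86 CPM per kb, and Fgf5 and Fgf8 were under 1 CPM. Among FGF receptors, Fgfr1 (9.85) was above Fgfrl1 (2.50), Fgfr4 (1.17) and Fgfr3 (0.860 CPM per kb). The main transcript of Fgfr2 is a short form with a coding sequence of 549 nt and 20.97 to 23.96 CPM, whereas its transcript with the longest coding sequence (2523 nt) reached 2.86 CPM at most, so that its place in this order depends on the transcript. Of the ligands outside these families, Bmp4 (24.6 CPM on average in standard) and Gdf3 (45.6 CPM) were well above the floor, and Lif was at 0, 0 and 0.635 CPM in standard and 1.05 and 0.499 CPM in AHARIBO RIBO-seq, at most 12 counts.

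**Figure D5:**
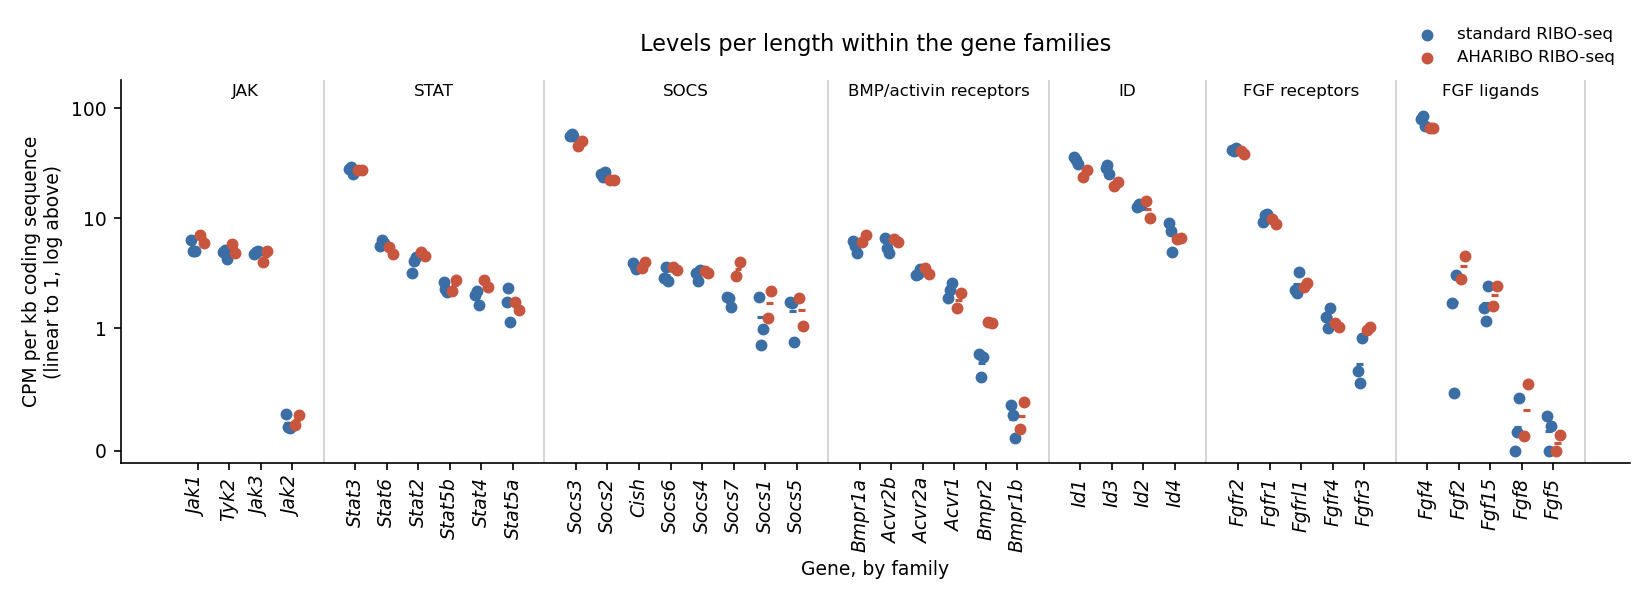
Level per kb of coding sequence of the main transcript (CPM per kb, linear up to 1 and logarithmic above) for members and genes of their families, with points for libraries (standard RIBO-seq blue, AHARIBO RIBO-seq red) and lines for group means. Stat3, Socs3 and Fgf4 lie apart from the other genes shown of their families, and Jak1 lies beside Tyk2 and Jak3. The Fgfr2 point is a short form of 549 nt.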

How the data were processed

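Per the labels and the study's methods, the authors trimmed reads with Trimmomatic 0.36, discarded reads under 20 nt, removed rRNA and tRNA reads, aligned to Gencode M17 transcripts (GRCm38.p6) with STAR at default settings, removed antisense reads and deposited raw counts per transcript, with duplicates removed (used here) and kept (an alternative), beside the transcript length. How reads matching several transcripts were counted is not given in the sources used here. The number of per-sample columns not used was 0. Identifiers were matched to Gencode M21 (99.76% of 135276 transcripts).

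CPM used TMM factors over all transcripts, and transcripts with 1 CPM in at least 1 library were tested with edgeR 4.0.16 (R 4.3.3, quasi-likelihood, AHARIBO against standard, no block), with Benjamini-Hochberg adjustment over the 66972 tested. Standard errors are the log2 fold change divided by the square root of the F statistic. DESeq2 1.42.0 was an alternative. The edgeR fit was tested on simulated data, the DESeq2 fit was not. Shares and count differences were compared by exact permutation over libraries (Python 3.11.15, scipy 1.17.1). Floors of 3 counts cover counting error only.

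The members and lists were chosen with earlier results of these data known. Named genes are all members and, from the wider list, every gene called and the order of levels in each gene family, with genes under 1 CPM everywhere. Cntfr, Bmpr2, Bmp4, Gdf3, Lif and the transcripts of Lifr, Jak1, Socs3, Id3 and Il6st were named after their values were seen. The length classes, the groups of 5′ transcripts and the 3′ UTR extensions were defined after values were seen. Positions of footprints within transcripts were not analysed here. The level of 1 gene of the wider list, which is in the counts and medians, is not reported here.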

Additional observations from a re-analysis of the deposited data

How the results depend on the processing

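The median log2 fold change of the members stayed between -0.12 and -0.03 under every alternative. The count of members lower in AHARIBO RIBO-seq was 1, and became 0 with DESeq2 (where 3 of the 10 had an unadjusted p under 0.05), with unadjusted library sizes, without the filter, at a log2 fold change over 1.5 and an adjusted p of at most 0.01, with duplicate reads kept, with 1 transcript per gene, with summed protein_coding transcripts and with the longest coding sequence, 2 (Id1 and Id3) with RLE factors and with TMM after the filter, and 0 to 3 as each library was left out. In the wider list, 1 gene higher (Socs7) became 0 with DESeq2 (which gave it no adjusted p), the fold threshold or summed transcripts. This count was 2 with duplicates kept and 1 to 2 as each standard library was left out, with Socs7 among those called. The log2 fold change of Socs7 was 0.70 without AHARIBO replicate 2. The 1 gene lower became 0 with DESeq2, the fold threshold, 1 transcript per gene or summed transcripts. That count was 2 with RLE factors or TMM after the filter and 0 to 2 as each standard library was left out. No source ties same-numbered libraries of the methods to 1 culture, and the numbers were not taken as pairs. Deviations of same-numbered libraries correlated at 0.035 for replicate 1 and -0.094 for replicate 2. With 2 AHARIBO libraries, their deviations from the mean are mirror images, so these correlations cannot decide whether libraries were paired. With a replicate block 2 members were lower and 3 genes of the wider list were higher, while the calls of Map2k2 (adjusted p = 0.0692) and of 3 Lifr transcripts (0.150, 0.278 and 0.175) were lost and ENSMUST00000125968.1 of Jak1 was called (0.0496). Stat3 turned positive with unadjusted library sizes (0.0095) and 1 transcript per gene (0.0049), and ranged from -0.078 to 0.028 as each library was left out, and ENSMUST00000184311.7 of Il6st ranged from -0.092 to 0.18. The share of reads on the members differed by -4.0e-05 percentage points, which became 0.0044 with all protein_coding transcripts and -0.0011 to 0.00085 by library left out. The highest level per kb, 72.2 CPM for Fgf4, was 54.0 with duplicates kept and, per kb of whole transcript, 14.5 CPM, close to Id1 (14.2), Stat3 (14.1) and Socs3 (13.9). Why the values moved was not tested. Id1 and Id3 had 57 to 144 counts per library, and what depth took from their calls was not tested.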
